A study of Mus musculus with 4 samples.

Results

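A set of 9 transcription factors that steer the fates of T cells and innate lymphoid cells, Gata3, Rora, Tbx21, Eomes, Tcf7, Lef1, Bcl6, Maf and Zbtb16, was followed through the immune cells of the mouse lung. They were chosen by symbol, and each symbol matched 1 of the 31053 genes in the deposited count matrices. The study deleted Ift20, a component of intraflagellar transport that T cells also use although they carry no cilium, and asked how allergic lung inflammation unfolds without it in T cells. All mice were C57BL/6 and carried floxed Ift20 alleles (Ift20 f/f, called WT). The KO mice (Ift20 f/f CD4 cre) also carried Cre under the control of CD4, which is active in developing T cells before the CD4 and CD8 lineages part, so that the deletion reaches CD8 T cells as well. Mice of the Papain WT and Papain KO groups received 25 µg of papain, a plant protease allergen, intranasally on 3 consecutive days, were challenged on day 14 and were harvested on day 15. DPBS WT and DPBS KO mice received buffer. Live CD45.2+ lung cells were sorted and 1 droplet library was sequenced per group, from a number of mice that the labels do not state. As a group is 1 library, the groups could not be tested against each other, no p-value is given, and every interval below covers counting error only.

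Each factor is tied to particular lineages. Gata3 drives type 2 helper T cells and group 2 innate lymphoid cells (ILC2), and Rora, a ROR family nuclear receptor, is needed for ILC2 and also works in type 17 and regulatory T cells. Tbx21 encodes T-bet, the factor of type 1 helper and cytotoxic cells, and its T-box relative Eomes acts in NK cells and memory CD8 T cells. Tcf7 and Lef1 encode the HMG-box proteins TCF-1 and LEF-1, which are high in naive T cells and decline as effectors form. Bcl6 is the repressor that follicular helper T cells depend on, Maf promotes IL-4, IL-10 and IL-21 production, and Zbtb16 encodes PLZF, the factor of innate-like T cells and of innate lymphoid precursors.

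The genes lie at separate places in the GRCm38 genome (GENCODE M21), Gata3 at chr2:9857078-9890034 on the minus strand, Rora at chr9:68653786-69388246 on the plus strand, Tbx21 at chr11:97098071-97115331 (minus), Eomes at chr9:118478212-118486132 (plus), Tcf7 at chr11:52252371-52283014 (minus), Lef1 at chr3:131110471-131224356 (plus), Bcl6 at chr16:23965052-23988852 (minus), Maf at chr8:115682942-115707794 (minus) and Zbtb16 at chr9:48654297-48836222 (minus). The set of RefSeq promoters (GRCm38.p6) searched here held 12 annotated starts for 7 of the 9 genes and no entry for Maf or Zbtb16. The bases before the start are shown for Gata3 and Rora, which were high together in papain-exposed CD4 T cells, and for a start inside the Lef1 gene, as Lef1 was less frequent in the cells that held them. The Gata3 start shown also lies inside the GENCODE span given above for that gene. Windows of 300 bases (250 before and 50 after each start) were searched on both strands for the letters GATAA (GATA factors), AGGTCA (ROR), TCACAC (T-box), CTTTGA (TCF and LEF) and TGTGGT (RUNX). Each line below holds the 250 bases before the start, 5′ to 3′ on the strand of the gene, with matches in capitals.
Gata3, chr2:9878601-9878850, minus strand: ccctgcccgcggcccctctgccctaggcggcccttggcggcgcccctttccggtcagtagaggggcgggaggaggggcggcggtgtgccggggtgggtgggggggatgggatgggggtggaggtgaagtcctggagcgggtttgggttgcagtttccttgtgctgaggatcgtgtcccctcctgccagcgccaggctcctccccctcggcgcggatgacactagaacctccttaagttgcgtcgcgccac
Rora, chr9:68653536-68653785, plus strand: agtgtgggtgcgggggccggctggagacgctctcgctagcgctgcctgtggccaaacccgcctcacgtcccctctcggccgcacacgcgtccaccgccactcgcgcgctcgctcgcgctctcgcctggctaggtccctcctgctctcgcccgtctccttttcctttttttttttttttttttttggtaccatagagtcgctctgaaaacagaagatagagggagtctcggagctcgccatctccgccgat
Lef1, start inside the gene, chr3:131156044-131156293, plus strand: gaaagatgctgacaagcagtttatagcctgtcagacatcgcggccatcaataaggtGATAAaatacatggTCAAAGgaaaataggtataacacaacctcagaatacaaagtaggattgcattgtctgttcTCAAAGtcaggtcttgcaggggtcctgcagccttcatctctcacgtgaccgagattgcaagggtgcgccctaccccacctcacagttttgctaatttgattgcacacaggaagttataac
The windows of Gata3 and Rora held none of these letters. The Lef1 window held TCAAAG, the TCF and LEF letters on the other strand, at 180 and 120 bases before the start, and GATAA at 194 bases before and, as TTATC on the other strand, at 18 bases after it. Of all 32851 promoter windows, 25.4% held GATAA, 16.3% AGGTCA, 14.5% TCACAC, 16.0% CTTTGA and 16.8% TGTGGT on either strand, so single matches are common. Among the other entries, GATAA was found in 1 window of Tcf7, AGGTCA in another window of Tcf7 and CTTTGA in 1 window of Bcl6. The other Lef1 windows held none of these letters, so the window shown does not stand for all starts of Lef1.

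Of 28805 deposited barcodes 25909 were kept, 5433 to 7587 per library at median depths of 5851 to 6680 unique molecular identifiers (UMIs, 1 for each captured mRNA molecule). Lymphoid cells were clustered without the 9 genes, and clusters were assigned by markers to CD4 T (4299 cells), CD8 T (3078), gamma-delta T (92), NK (365) and ILC2 (277), names that are short for "CD4 T-like" and so on. A Cd8b1 UMI was found in 97.3% of the CD8 T cells, a Trdc UMI in 89.1% of the gamma-delta T cells, an Ncr1 UMI in 85.2% of the NK cells and an Il1rl1 UMI in 84.1% of the ILC2. Of the gamma-delta T cells 46.7% held a UMI of the alpha-beta receptor gene Trac (29.2% to 65.4% by library) and 16.3% one of Cd8b1. That class may thus hold other T cells. In the CD4 T cells 94.3% had a Cd3e UMI and 63.0% a Cd4 UMI. Of the CD4 T cells 46.8% held a UMI of the macrophage gene Lyz2, a sign of free RNA in the droplets, and 7 to 16 cell barcodes were shared between pairs of libraries. Levels are UMIs per 1000000 UMIs of the class (CPM) and are compared for a gene across classes, not between genes. Where 4 values stand in a row they follow a fixed order, WT before KO and buffer before papain, so that DPBS WT comes first, DPBS KO next, then Papain WT, and Papain KO last. B cells (7557) and alveolar macrophages (4056) served as classes in which most of the factors should be near 0.

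The targeted gene followed the labels. In CD4 T cells Ift20 stood at 57.0, 21.6, 57.5 and 17.1 CPM, so that both KO libraries were low. In CD8 T cells the levels were 52.0, 15.7, 54.4 and 17.04 CPM. For CD4 T cells the log2 ratio of KO to WT came to −1.40 (95% interval −1.71 to −1.09) with buffer and −1.75 (−2.08 to −1.44) after papain, and −1.72 and −1.68 for CD8 T cells, while in NK cells, ILC2 and gamma-delta T cells every such interval held 0. B cells were at −0.35 (−0.59 to −0.12) with buffer and 0.06 after papain.

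Gata3 and Rora separated ILC2 from every other named class taken as a whole, although smaller groups of T cells, described further on, reached like levels. The median over the 4 libraries was 644 CPM of Gata3 in ILC2 (622 to 732), and the next class, gamma-delta T cells, reached 135 CPM (96.8 to 149) without overlap. NK cells (68.3 to 115 CPM of Gata3) and CD4 T cells (70.7 to 205) overlapped with gamma-delta T cells, CD8 T cells lay lower at 32.5 to 53.7 CPM, and no library of B cells or alveolar macrophages passed 1.38 CPM. For Rora the ILC2 median was 769 CPM (710 to 830), and NK cells followed at 88.8 (42.5 to 161). Below them the classes overlapped, with CD4 T cells at 46.7 to 214 CPM, gamma-delta T cells at 34.2 to 173 and alveolar macrophages at 47.2 to 58.0. CD8 T cells had 20.5 to 45.6 CPM of Rora, and B cells 0.439 to 2.95.

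The T-box pair marked NK cells. Eomes had a median of 373 CPM in NK cells (324 to 429) against 36 in CD8 T cells (33.8 to 54.6), and the groups did not overlap. CD4 T cells held 1.91 to 2.71 CPM of Eomes. Tbx21 reached 136 to 174 CPM in NK cells, 6.21 to 15.5 in CD8 T cells and 1.62 to 5.18 in CD4 T cells, each class below the one before it. The CD4 T cell level of Tbx21 overlapped with that of no lymphoid class, but the B cells lay close under it at 1.33 to 1.59 CPM. ILC2 held no UMI of Tbx21 or Eomes in any of the 4 libraries, which allows up to 5.51 to 10.5 CPM per library at 3 counts.

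Tcf7 and Lef1 ran the other way. Gamma-delta T cells and CD4 T cells had the highest levels and overlapped, at 395 to 847 and 408 to 485 CPM of Tcf7 and at 484 to 512 and 461 to 557 CPM of Lef1. CD8 T cells followed at 335 to 398 CPM of Tcf7 and 386 to 419 of Lef1. NK cells held 88.5 to 107 CPM of Tcf7 and 52.0 to 75.4 of Lef1, and ILC2 only 9.51 to 34.9 and 14.9 to 23.9. These gamma-delta T cells were a small Sox4- and Ikzf2-expressing cluster, and which class led for Lef1 depended on how cells were classed. Cells with Il17a and Cd163l1, of which 17.8% had a Trdc UMI, formed a separate unnamed cluster.

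The remaining 3 factors were less tied to lymphoid classes. By the median over libraries Maf was highest in ILC2 (89.9 to 168 CPM, median 114), followed by NK cells at 39.1 to 70.9 and by CD4 T cells at 41.9 to 149, gamma-delta T cells at 34.1 to 70.5 and B cells at 39.9 to 46.7, which all overlapped. In Papain WT the CD4 T cells, at 149 CPM, lay above the ILC2 at 89.9, and with per-cell transcript gates gamma-delta T cells led for Maf. Bcl6 had no leading T or innate lymphoid class, with B cells at 24.1 to 28.9 CPM, NK cells at 15.4 to 26.8, CD4 T cells at 5.73 to 16.9 and CD8 T cells at 4.65 to 9.45. Monocytes held more Bcl6, at 56.8 to 83.6 CPM, and carried 31.6% of all Bcl6 UMIs of kept cells. Neutrophils held 38.8 to 73.1 CPM of Bcl6, dendritic cells 36.9 to 42.5 and alveolar macrophages 11.8 to 13.5. Zbtb16 was nearly absent from CD4 T cells, with 4, 1, 2 and 1 UMIs, and was found at 3.54 to 13.1 CPM in NK cells, 5.51 to 7.00 in ILC2 and 0 to 38.4 in gamma-delta T cells. Most Zbtb16 UMIs, 62.1%, came from monocytes (21.1 to 40.6 CPM), and neutrophils held 17.1 to 32.5 CPM. Alveolar macrophages carried 29.4% of the Rora UMIs, CD4 T cells 40.4% of those of Gata3, and CD8 T and NK cells together most of those of Eomes, at 40.9% and 35.3%.

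**Figure D1:**
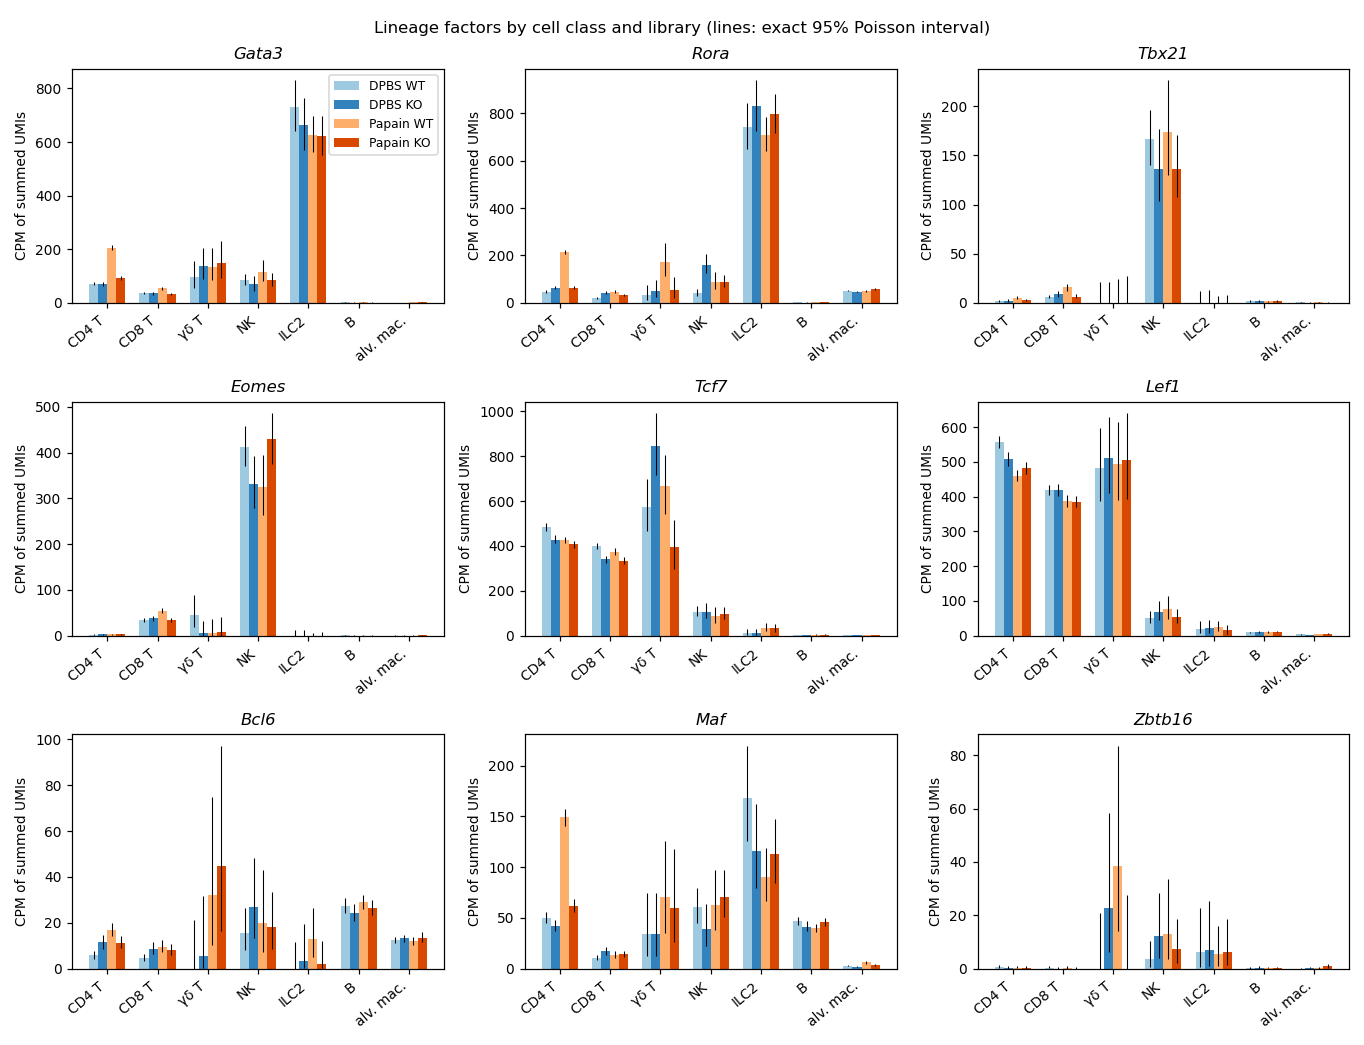
Bars give the level of each lineage factor (CPM, linear axes from 0) in 7 cell classes, with 1 bar per library, and lines its exact 95% Poisson interval, which covers counting error only. ILC2 stand apart for Gata3 and Rora, NK cells for Tbx21 and Eomes, and T cells for Tcf7 and Lef1, whereas Bcl6 and Maf spread over several classes.

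In CD4 T cells papain exposure of WT mice went with higher Gata3, Rora, Maf, Bcl6 and Tbx21, and these levels were lower in Papain KO. Gata3 was at 71.0, 70.7, 205 and 90.8 CPM, from 373 to 1743 UMIs. Rora was at 46.7, 62.9, 214 and 62.4 CPM, and Maf at 49.96, 41.9, 149 and 61.5. For each of these 3 genes Papain WT was the high library, and the other 3 libraries lay within 1.5-fold of each other. Bcl6 was lowest in DPBS WT, with 5.73 CPM against 11.4, 16.9 and 11.3, and Tbx21 was at 1.62, 2.08, 5.18 and 2.37 CPM, from 11 to 44 UMIs. The naive-cell factors differed little, Tcf7 standing at 485, 429, 428 and 408 CPM and Lef1 at 557, 508, 461 and 483.

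Papain against DPBS in WT CD4 T cells gave a log2 ratio of 1.53 (1.39 to 1.68) for Gata3, 2.19 (2.02 to 2.37) for Rora and 1.57 (1.40 to 1.75) for Maf. The ratio was 1.56 (1.04 to 2.11) for Bcl6 and 1.68 (0.71 to 2.78) for Tbx21, against −0.18 for Tcf7, −0.27 for Lef1 and 0.50 (−0.54 to 1.61) for Eomes. Of the 8 factors with at least 20 UMIs in the 2 libraries together, 5 were at least 1.5-fold higher and 0 lower. Among all 10522 genes so measured 17.4% were past this fold, 14.0% higher and 3.31% lower. The median log2 ratio was 1.54 over the 8 factors and 0.13 over all genes. Scaling by TMM shifted every ratio of this comparison by −0.15 and lowered the share of higher genes among those past the fold from 80.9% to 64.1%, and the same 5 factors were higher. Clustered without library integration 2 of the factors were past the fold and Gata3 was at 0.0518, and without the mixed clusters Gata3 was at 0.97. The direction for Tbx21, from 11 and 44 UMIs, turned to −0.29 when CD4 T cells were gated one by one on their own transcripts.

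After papain 4 of the factors were lower in KO than in WT. The log2 ratio in CD4 T cells was −1.78 (−1.94 to −1.61) for Rora, −1.27 (−1.45 to −1.11) for Maf, −1.18 (−1.32 to −1.04) for Gata3 and −1.13 (−2.11 to −0.24) for Tbx21. Bcl6, at −0.57 (−1.01 to −0.15), lay just short of the 1.5-fold limit. Tcf7 at −0.07 (−0.14 to 0.01), Lef1 at 0.07 and Eomes at −0.003 (−1.02 to 0.98) were within or near counting error of no difference. Thus 4 of 8 factors were lower and 0 higher, beside 16.0% of 10448 genes past the fold, 13% lower and 2.98% higher, and the medians were −0.85 over the factors and −0.13 over all genes. TMM shifted these ratios by 0.13 and raised the share of higher genes among those past the fold from 18.6% to 32.0%. Clustered without library integration, where the Foxp3-led cells and a cluster led by Tnfsf11, Itgb1, Il13 and Ccl5 stayed unnamed and outside the class, 0 factors were past the fold and Gata3 was at 0.10. With the Cd4 cells of the unnamed clusters added back Gata3 was at −1.23. Without the mixed clusters alone 2 factors were past the fold and Gata3 was at −0.58. This comparison and the one before it share the Papain WT library, so they are not independent of each other.

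In the comparisons without the Papain WT library fewer factors of CD4 T cells were past the fold. KO against WT in DPBS gave a log2 ratio of 0.99 (0.38 to 1.61) for Bcl6, the 1 factor of 8 past the fold (background 11.8% of 9988 genes, 5.19% higher and 6.61% lower). Rora followed at 0.43 (0.20 to 0.66), and Gata3 was at −0.01 (−0.20 to 0.19). Papain against DPBS within KO put 0 of 8 factors past the fold (background 8.80% of 9910 genes, 5.30% higher and 3.50% lower). There Maf was at 0.55 (0.31 to 0.80), Gata3 at 0.36 (0.17 to 0.55) and Rora at −0.01 (−0.23 to 0.21).

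**Figure D2:**
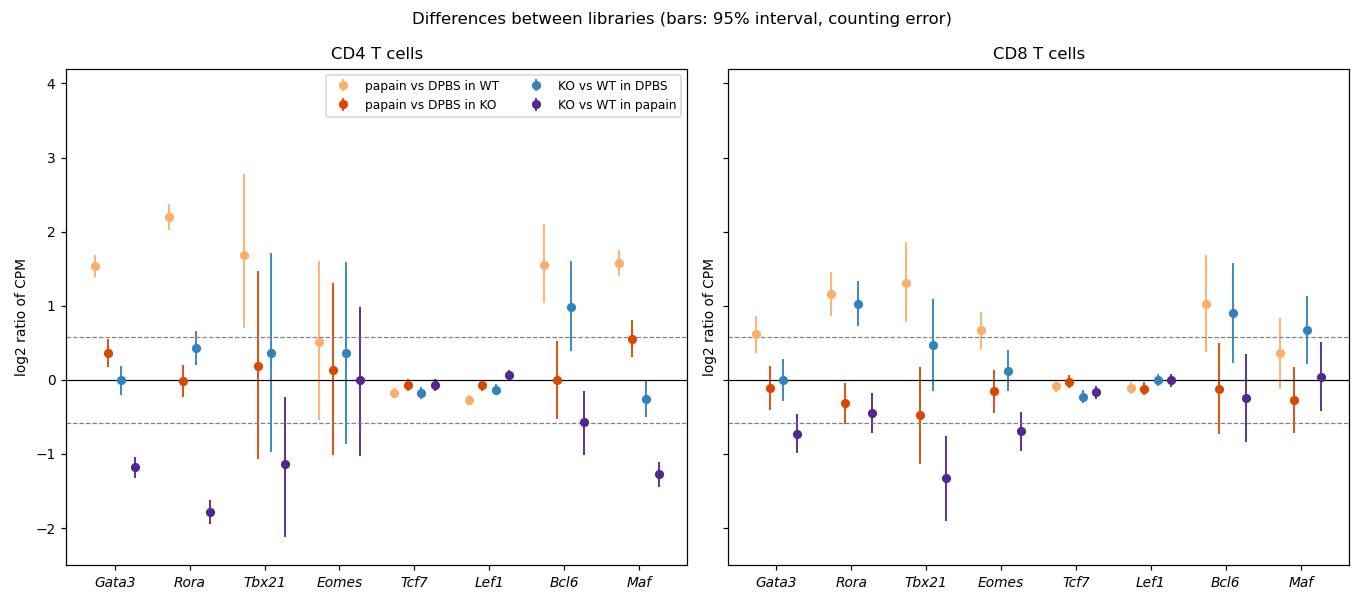
Log2 ratio of the level of 8 lineage factors in CD4 T and CD8 T cells for the 4 comparisons, with exact 95% intervals for counting error, and dashed lines at 1.5-fold either way. In CD4 T cells Gata3, Rora and Maf lie above the upper line for papain against DPBS in WT and below the lower line for KO against WT in papain, while Tcf7 and Lef1 stay near 0 throughout.

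The shares of cells with a UMI followed the levels. A Gata3 UMI was found in 25.4%, 25.3%, 36.4% and 27.7% of the CD4 T cells, and in 10.8%, 10.4%, 19.1% and 12.0% after every cell was thinned to 2000 UMIs. In thinned B cells the share was 0% to 0.182%. Rora UMIs were found in 13.4%, 17.6%, 26.7% and 15.8% of CD4 T cells (6.32%, 9.46%, 16.1% and 8.44% after thinning, at most 0.439% in B cells). For Maf the shares were 14.2%, 14.8%, 29.9% and 19.0%, or 6.91%, 6.46%, 16.9% and 8.66% after thinning, against 0.17% to 1.43% in alveolar macrophages. The reference class differs here by gene. Without thinning, 14.8% to 17.1% of B cells held a Maf UMI, close to the CD4 T cells outside Papain WT. A Rora UMI was found, likewise without thinning, in 50.1% to 56.3% of alveolar macrophages, at median depths of 17117 to 19720 UMIs. Papain WT had the highest share for each of the 3 genes at equal depth. The median depth of CD4 T cells was 5336 to 6235 UMIs in the 4 libraries.

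A small number of cells carried a large part of these transcripts, and the largest part in Papain WT. There 169 CD4 T cells with at least 3 Gata3 UMIs held 77.5% of the Gata3 UMIs of the class, and 1 cell held 65. The corresponding numbers were 44 cells and 36.4% in DPBS WT, 38 and 39.1% in DPBS KO and 52 and 54.7% in Papain KO. For Rora 187 such cells held 88.1% in Papain WT and 41 held 68.8% in Papain KO, and for Maf 150 held 74.4% and 44 held 55.5%. In DPBS WT 30 such cells held 49.1% of Rora and 37 held 49.7% of Maf. In DPBS KO 39 held 59.3% of Rora and 21 held 40.3% of Maf. Cells were not thinned for these counts. Most of the Papain WT cells of this kind lay in 2 clusters, 84 and 70 of the 169 for Gata3, 90 and 93 of the 187 for Rora, and 66 and 73 of the 150 for Maf. The first of these clusters was led by Itgb1, Ifng, Ccl5 and Cxcr6 and was mixed, its cells being put into CD4 T or CD8 T by their own Cd4 and Cd8 transcripts, and the second was led by Tnfrsf4 and Foxp3.

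Within the mixed Ifng and Ccl5 cluster the CD4 T cells of Papain WT (188 cells) held 587 CPM of Gata3, those of DPBS WT (61 cells) 161 and those of Papain KO (45 cells) 182. KO against WT in papain gave −1.69 (−2.07 to −1.33). Rora stood at 516 CPM in Papain WT, 153 in DPBS WT and 272 in Papain KO (KO against WT −0.92, −1.24 to −0.62). Maf followed with 366, 127 and 212 CPM (−0.79, −1.15 to −0.44). In DPBS the order of the genotypes was the other way for Rora, with 424 CPM in 32 KO cells against 153 in WT (1.47, 1.02 to 1.92). Tbx21 in this cluster did not differ beyond counting error between the papain libraries, with 35.3 CPM in KO and 26.4 in WT (0.42, −0.61 to 1.36).

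In the Foxp3-led cluster, Foxp3 being the defining factor of regulatory T cells, the genotypes were closer for Gata3. It stood at 485 CPM in Papain WT (141 cells), 402 in Papain KO (57 cells), 278 in DPBS WT (55 cells) and 149.7 in DPBS KO (44 cells). KO against WT gave −0.27 (−0.52 to −0.03) in papain and −0.89 (−1.43 to −0.38) in DPBS. Rora was at 795 CPM in Papain WT, 388 in Papain KO, 297 in DPBS WT and 338 in DPBS KO, a log2 ratio of −1.03 (−1.27 to −0.80) in papain. Maf was lower in KO under both treatments, at 311 against 461 CPM in papain (−0.57, −0.85 to −0.30) and 133 against 320.1 in DPBS (−1.26, −1.81 to −0.74). The Foxp3-led cells of Papain KO were thus nearer to WT in Gata3 than in Rora.

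The 3 larger CD4 T clusters, led by Tubb2a, Igfbp4 and Ly6c1, showed no such gap. Gata3 stood at 54.3 against 48.8 CPM (KO against WT in papain), 54.5 against 58.5 and 62.7 against 66.5, and all 3 intervals held 0, as did those of Rora and Maf. When the Papain KO clusters were weighted as in Papain WT, the KO to WT ratio moved from −1.18 to −0.71 for Gata3, from −1.78 to −0.92 for Rora and from −1.27 to −0.59 for Maf. For Tbx21 it moved from −1.13 to 0.28. At equal weights the gap was thus smaller for Gata3, Rora and Maf with its direction unchanged, and for Tbx21 the direction turned. Papain against DPBS in WT moved likewise at the DPBS weights, to 0.73 for Gata3, 1.10 for Rora, 0.66 for Maf, 0.65 for Tbx21 and 1.34 for Bcl6. Bcl6 was higher after papain in the Tubb2a-led (1.17) and Igfbp4-led (1.67) clusters as well.

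**Figure D3:**
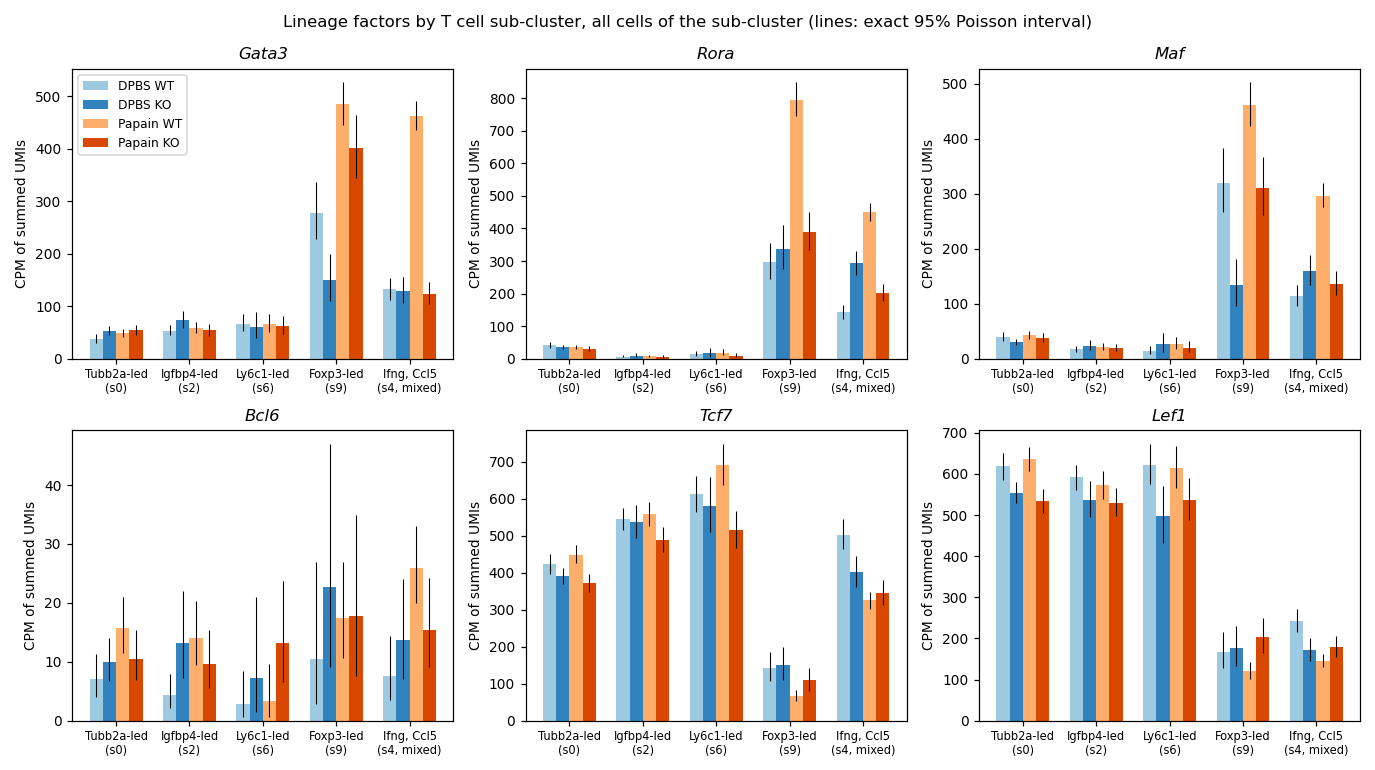
Bars give the level of 6 lineage factors (CPM) in the 5 T cell clusters that hold most CD4 T cells, with 1 bar per library, and lines its exact 95% Poisson interval. All cells of a cluster are counted, so the mixed Ifng and Ccl5 cluster includes its CD8 cells. Gata3, Rora and Maf are high in the Foxp3-led and the mixed cluster and highest there in Papain WT, and Lef1 is lower in both than in the other 3 clusters.

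Other clusters of lymphoid cells showed further combinations. All 191 cells of the unnamed Il17a, Il17f and Cd163l1 cluster together held 753 CPM of Rora, 409.8 of Maf, 171 of Gata3 and 49.5 of Zbtb16, and no Eomes UMI. The 327 cells of an unnamed T cell cluster with NK receptors held 79.96 CPM of Eomes and 47.0 of Tbx21 beside 330 of Tcf7. A dividing cluster of 247 cells held 217 CPM of Rora, 159.9 of Gata3 and 42.4 of Tbx21. In the Foxp3-led cluster Tcf7 was at 98.8 CPM and Lef1 at 152, and in the mixed cluster at 378 and 177, so that Tcf7 and Lef1 parted there.

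The CD4 T cells of the class were also grouped by the transcripts of their own effector genes. A UMI of Il4, Il5 or Il13, the type 2 cytokines, was found in 36 CD4 T cells of Papain WT and in 1 of each other library. Those 36 cells, at a median of 10646 UMIs, held 1122 CPM of Gata3, 663 of Rora and 492 of Maf, but 136 of Tcf7 and 43.0 of Lef1. The 128 Papain WT cells with a Foxp3 UMI had 487 CPM of Gata3, 815 of Rora and 454 of Maf, and no cell held both Foxp3 and a type 2 cytokine. The 39 cells with an Ifng UMI had 88.3 CPM of Tbx21 (27 UMIs), against 9.54 in the type 2 cytokine cells (4 UMIs), beside 235 of Gata3 and 415 of Rora. Rora was thus high in all 3 kinds of cell, Gata3 most in the cytokine-bearing cells and Tbx21 in the Ifng cells.

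Foxp3 cells differed by library. Numbering 52, 29, 128 and 49, they held 233, 104, 487 and 333 CPM of Gata3 and 261, 339.8, 815 and 386 CPM of Rora. Among CD4 T cells with none of these transcripts, 831 to 1142 per library, Papain WT was still the high library, with 102 CPM of Gata3 against 59.4, 67.0 and 68.1 in the others. Rora there was at 86.2 CPM against 31.2, 48.2 and 32.1, and Maf at 76.6 against 34.7, 34.6 and 38.2. Cells that express a transcript may lack its UMI at this depth, so this group is not free of effector cells.

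**Figure D4:**
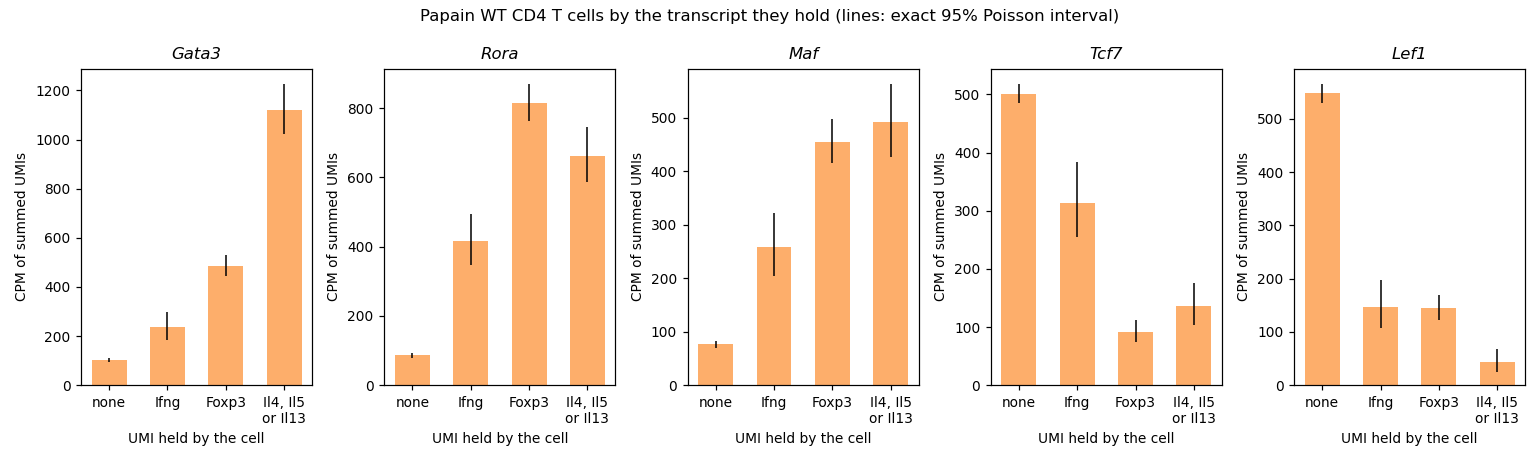
Level of Gata3, Rora, Maf, Tcf7 and Lef1 (CPM) in CD4 T cells of Papain WT grouped by a UMI of a type 2 cytokine, of Foxp3, of Ifng or of none of them, with exact 95% Poisson intervals. Gata3 is highest in the 36 cells with a type 2 cytokine, Rora in the 128 Foxp3 cells, and Lef1 in the cells with none of these transcripts.

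The factors were then paired cell by cell, on CD4 T cells thinned to 2000 UMIs. In Papain WT 41.3% of the cells with a Gata3 UMI also had a Rora UMI (104 of 252, exact binomial 95% interval 35.1% to 47.6%), against 10.2% (8.46% to 12.2%) of the cells without. In Papain KO the shares were 22.2% (24 of 108, 14.8% to 31.2%) against 6.56%, in DPBS KO 21.1% against 8.11% and in DPBS WT 9.23% (12 of 130) against 5.97%. Rora was thus more frequent among Gata3 cells in all 4 libraries, in DPBS WT by a margin of a few cells. Maf was found in 42.3% of Rora cells against 12.0% of the others in Papain WT, in 25.0% against 7.15% in Papain KO, in 28.9% against 5.42% in DPBS WT and in 11% against 5.99% in DPBS KO. Maf and Gata3 overlapped less, at 30.2% against 13.8% in Papain WT and 6.67% against 6.44% in DPBS KO.

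Lef1 was less frequent in cells with Rora or Gata3. It was found in 26.3% of Papain WT cells with a Rora UMI and in 62.4% of those without, and in 40.8% against 63.0% in Papain KO, 48.8% against 61.5% in DPBS KO and 56.6% against 64.7% in DPBS WT. Gata3 cells of Papain WT likewise had Lef1 in 40.9% against 60.3%. Tcf7 and Lef1 were found together more often, in 63.2% of Tcf7 cells against 48.8% of the others in Papain WT and 66.7% against 60.6% in DPBS WT. Cells of a class share their library and differ in depth before thinning, and the shares are a description of these cells. On average 1.48, 1.47, 1.69 and 1.48 of the 9 factors were detected per thinned CD4 T cell.

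**Figure D5:**
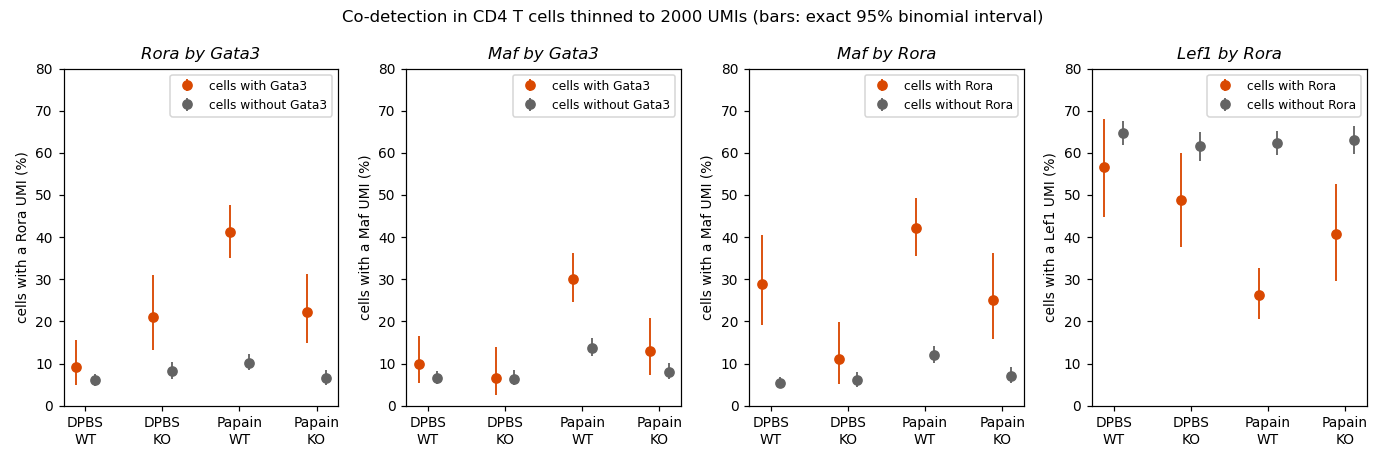
Share of CD4 T cells (percent, each cell thinned to 2000 UMIs) with a UMI of Rora, Maf or Lef1 among cells with and without a UMI of a partner factor, in the 4 libraries, with exact 95% binomial intervals. Rora among Gata3 cells, and Maf among Rora cells, is most frequent in Papain WT, where Lef1 is least frequent among Rora cells.

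In CD8 T cells Tbx21 and Eomes, the factors of cytotoxic cells, were highest in Papain WT. Tbx21 stood at 6.25, 8.65, 15.5 and 6.21 CPM, and Eomes at 34.4, 37.6, 54.6 and 33.8. Gata3 was also highest in Papain WT, with 35.1, 35.01, 53.7 and 32.5 CPM, whereas Rora was lowest in DPBS WT (20.5, 41.7, 45.6 and 33.5). KO against WT after papain gave −1.32 (−1.91 to −0.75) for Tbx21, −0.72 (−0.99 to −0.46) for Gata3 and −0.69 (−0.96 to −0.43) for Eomes. These were the 3 factors past the fold, all lower, of 8 measured, beside 10.4% of 9921 genes, 7.31% lower and 3.12% higher. Papain against DPBS in WT put 5 of 8 higher and 0 lower (background 12.1% of 10076 genes, 8.02% higher and 4.07% lower), with Tbx21 at 1.31 (0.78 to 1.86), Rora at 1.15 (0.86 to 1.46), Bcl6 at 1.02, Eomes at 0.67 and Gata3 at 0.61. With TMM Gata3 and Eomes fell short of the limit, which left 3 of 8. At the DPBS WT cluster weights Gata3 was at 0.47, Eomes at 0.24, Tbx21 at 0.69, Rora at 0.85 and Bcl6 at 1.09.

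In DPBS 3 of 8 factors were higher in KO than in WT CD8 T cells and 0 were lower (background 12.3% of 9984 genes, 4.97% higher and 7.30% lower). Rora was at 1.03 (0.72 to 1.34), Bcl6 at 0.90 (0.22 to 1.58) and Maf at 0.67 (0.21 to 1.13), from 10.6 CPM of Maf in WT to 16.9 in KO. Papain against DPBS in KO left 0 of 8 past the fold (background 8.48% of 9818 genes, 5.15% higher and 3.33% lower). The median over the factors was −0.35, 0.64, 0.30 and −0.14 in the order of these 4 comparisons, beside −0.08, 0.06, −0.03 and 0.01 over all genes. TMM moved the share of higher genes among those past the fold from 30.0% to 43.7% for KO against WT in papain and from 66.3% to 54.0% for papain against DPBS in WT.

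For KO against WT in papain the 3 CD8 T ratios past the fold were smaller once clusters were weighted alike, at −0.89 for Tbx21, −0.63 for Gata3 and −0.45 for Eomes. In DPBS the KO to WT ratio of Rora went from 1.03 to 0.66 at equal weights. That of Maf went from 0.67 to 0.27 and that of Bcl6 from 0.90 to 1.01. In the Ly6c2- and Gzmm-led CD8 cluster, 133 Papain KO cells held 61.4 CPM of Eomes against 94.2 in 185 Papain WT cells (−0.62, −1.01 to −0.24), and 38.1 against 69.3 CPM of Gata3. Tbx21 there was at 16.9 against 27.6 CPM (−0.71, −1.47 to 0.02). Over all thinned CD8 T cells Eomes was found in 22.0% of those with a Tbx21 UMI (9 of 41, 10.6% to 37.6%) and in 6.07% of the others, and Lef1 in 34.7% of Eomes cells against 56.6% of the others.

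NK cells, whose Ift20 level did not differ beyond counting error, held Tbx21 and Eomes in every library. Tbx21 stood at 167, 137, 174 and 136 CPM, and all 4 ratio intervals held 0. Eomes was at 413, 332, 324 and 429 CPM, lower in KO than in WT in DPBS (−0.32, −0.61 to −0.03) and higher in papain (0.40, 0.06 to 0.76). Rora varied between the NK libraries, at 42.5, 161, 88.5 and 89.1 CPM, lowest in DPBS WT and highest in DPBS KO, from 27 to 66 UMIs in 54 to 157 cells. KO exceeded WT with buffer, at 1.92 (1.31 to 2.55), and not with papain, at 0.01. Papain against DPBS was 1.06 (0.28 to 1.82) in WT and −0.85 (−1.42 to −0.30) in KO. Single cells weighed on these Rora ratios. Of the 27 UMIs of Papain WT 1 cell held 11, and of the 66 of DPBS KO 1 cell held 17. The intervals treat each UMI as independent and are thus too narrow here. A Cd3e UMI was found in 14.8% of Papain WT NK cells and in 1.91% to 4.62% of those of the other libraries. Whether such cells raised the Rora level was not tested. Tcf7 and Lef1 UMIs were found together, Lef1 in 25.5% of thinned NK cells with Tcf7 and 8.81% of the others. Eomes was found in 31.6% of NK cells with a Gata3 UMI against 48.1% of the others, and in similar shares of NK cells with and without Tbx21 (47.4% and 44.9%).

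ILC2 held Gata3 and Rora at much the same level in every library. Gata3 was at 732, 662, 626 and 622 CPM and Rora at 741, 829.9, 710.4 and 797, and all 8 ratio intervals of the pair held 0. Maf was highest in DPBS WT, at 168 CPM against 116, 89.9 and 113, and papain against DPBS in WT gave −0.90 (−1.49 to −0.31). Tcf7 was low, with 3, 3, 19 and 15 UMIs, or 9.51, 10.5, 34.9 and 32.0 CPM, and papain against DPBS in WT gave 1.88 (0.11 to 4.27). In thinned ILC2 Rora was found in 71.3% of the cells with a Gata3 UMI (122 of 171, 63.9% to 78.0%) and in 55.7% of the others (45.2% to 65.8%).

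Gamma-delta T cells, 18 to 26 per library, gave few UMIs of most factors. Tcf7 was at 575, 847, 666 and 395 CPM, KO lying above WT with buffer (0.56, 0.19 to 0.94) and below it with papain (−0.76, −1.26 to −0.26). Lef1 was at 484 to 512 CPM. Rora UMIs numbered 6, 9, 27 and 7, and papain against DPBS in WT gave 2.34 (1.03 to 3.91) and KO against WT in papain −1.73 (−3.17 to −0.50). Zbtb16 was found in DPBS KO (4 UMIs) and Papain WT (6) and not in the other libraries.

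Gene lists of related programs in CD4 T cells, chosen with earlier results of these data known, were compared in the same way, and their counts stand beside the shares of all genes past the fold. For KO against WT in papain those shares were 13% lower and 2.98% higher. There 11 of 13 measured type 2 genes were past the 1.5-fold limit and lower, and 0 were higher (median −2.96). Il13 had 0 UMIs in Papain KO against 177 in Papain WT, at least 41.1-fold lower when 0 is read as 3 counts, Il4 had 0 against 108, at least 25.1-fold lower, and Il5 had 1 against 27 (−4.23). Of 13 regulatory T cell genes 12 were lower and 0 higher (median −1.44), among them the IL-33 receptor gene Il1rl1 (−2.96), Il10 (−2.47) and Il2ra (−2.08). Of 15 type 1 and cytotoxic genes 7 were lower and 0 higher (median −0.53), with the chemokine receptor gene Cxcr6 at −2.61 and granzyme B (Gzmb) at −2.33. The type 2 and regulatory lists share Areg and Il1rl1, and the regulatory list shares Foxp3 and Ikzf2 with the list of other lineage factors.

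Other transcription factors of T cell lineages were split, as 8 of 23 were lower and 1 higher (median −0.40), led by Zeb2 (−1.76), Bhlhe40 (−1.65) and Ikzf2 (−1.41). Follicular helper genes were lower in 5 of 10 (median −0.59), with Tox2 at −3.52, the inhibitory receptor gene Pdcd1 at −2.30 and Cxcr5, the receptor that draws cells into follicles, at −0.96. Type 17 genes were lower in 4 of 5 (median −1.01, Ccr6 −1.30), and innate-like T cell genes in 2 of 11 (median −0.04, Il2rb −1.34), near the 13% of all genes. Only 5 of the 13 listed type 17 genes were measured, here and for papain against DPBS in WT. The unnamed Il17a, Il17f and Cd163l1 cluster, where 49.7% of cells had a Cd4 UMI, lies outside the CD4 T class. Naive and central memory genes stood level like Tcf7 and Lef1, with 1 of 13 higher, Klf2 at 0.62, and 0 lower (median 0.13).

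Papain against DPBS in WT, which shares the Papain WT library, ran the other way, with 14.0% of all genes higher and 3.31% lower. Of 13 type 2 genes 11 were higher (median 3.12, or 3.03 with genes at 0 put at their bound), Il13 at least 47.3-fold and Il5 at least 7.22-fold. Higher were also 12 of 13 regulatory T cell genes (1.96), 12 of 23 other lineage factors (0.59, Bhlhe40 at 2.42), 11 of 15 type 1 genes (1.05, Cxcr6 at 3.64), 4 of 10 follicular helper genes (0.57), 4 of 5 type 17 genes (1.36) and 3 of 11 innate-like genes (0.05), of which 1 was lower. No naive or central memory gene of 13 was past the limit (−0.18). Within KO, papain against DPBS put 6 of 13 regulatory T cell genes and 2 of 6 measured type 2 genes higher, and 1 type 2 gene lower. Of 14 measured type 1 and cytotoxic genes 5 were higher and 3 lower there (median 0.40), beside 5.30% and 3.50% of all genes. In DPBS, KO against WT put 1 of 23 other lineage factors higher and 1 lower, near the 5.19% and 6.61% of all genes. Of 14 type 1 and cytotoxic genes 5 were higher and 3 lower (median −0.03), both above those shares.

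Genes whose level ran most like that of each factor were sought over 20 points, the 5 lymphoid classes in 4 libraries, among 9024 genes. The points share libraries and the genes of a class go together, so the coefficients describe these 20 points only. Gata3 was followed most closely by Cd200r1 (Pearson r of log2 levels 0.97), Itm2c and Tnfaip3 (0.96 each), and Rora by Nfkbiz, Atp2b1 and Furin (0.95 each). Genes close to Tbx21 included Klrk1 and Klrc1 (0.99 each), and Eomes was followed by Samd3 (0.98), Ifitm10 and Klrc1 (0.97). Tcf7 was closest to Slamf6, S1pr1 and Lef1 (0.97, 0.97 and 0.96) and Lef1 to S1pr1, Cd3d and Slamf6 (0.98). Bcl6 (Eloa, 0.90, Tmem33, 0.90 and Naa20, 0.89) and Maf (Grb2, 0.88, Tspan32, 0.85 and Gata3, 0.84) had no partner as close, and Zbtb16 was too sparse to rank. With per-cell transcript gates 4 of the 24 closest genes were shared, so most of these partners depended on how cells were classed. Between the factors r was 0.92 for Gata3 and Rora, 0.94 for Tbx21 and Eomes and 0.96 for Tcf7 and Lef1, against −0.72 for Gata3 and Tcf7 and −0.79 for Rora and Tcf7.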

How the data were processed

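The authors deposited 1 filtered matrix of whole-number UMI counts per library from a Chromium Single Cell 3p v3 kit, made with Cell Ranger on mm10 per the submitters' processing notes; the matrix headers name software version 3.1.0. Depth per library was 53854420 to 75675956 UMIs. Cells were kept with more than 200 genes and under 15% mitochondrial UMIs, as in the study's methods. Doublets were removed with Scrublet scores at a rate of 0.8% per 1000 barcodes (267 to 557 per library), since its own threshold called 0 in 1 library. Cells were clustered in Seurat 5.3.0 (2000 variable genes without the 9 factors, library integration, 30 dimensions, resolution 0.8), and 9477 lymphoid cells were clustered again into 17 clusters, some left unnamed. The rules for naming clusters were set after the clusters were seen. A T cell cluster with under 90% of its cells of 1 kind was mixed, and its cells were split by their own Cd4 and Cd8 UMIs. From the ILC2 cluster 7 mast cells were removed.

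UMIs were summed per class and library and given as CPM with exact Poisson 95% intervals, log2 ratios with exact conditional binomial intervals and shares with Clopper-Pearson intervals. All cover counting error only, not mice or library preparation. The intervals of levels and ratios treat each UMI as independent. They thus also leave out which cells were sampled, and are too narrow where few cells hold most UMIs. A ratio is past the fold at 1.5-fold or more among genes with at least 20 UMIs in the 2 libraries together. A gene at 0 was read against 3 counts. Patterns used log2(CPM + 10) and genes with at least 200 UMIs. The 9 factors and the gene lists were chosen with earlier results of these data known. The 9 factors were named everywhere, and from each list at most 3 genes with the largest log2 ratio. One of the genes closest in pattern is not reported here. The fold calls and the intervals of ratios were tested on simulated CD4 T cell sums for KO against WT in papain. The simulated UMIs were independent draws. That test thus cannot show how the intervals hold for genes whose UMIs gather in few cells, such as Gata3, Rora and Maf. Python 3.11.15, scipy 1.17.1, scanpy 1.11.5 and edgeR 4.0.16 (TMM factors only) were used.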

Additional observations from a re-analysis of the deposited data

Results flagged for a closer look

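The ratio of KO to WT went one way in DPBS and the other way in papain, with both counting intervals free of 0, for 5 combinations of factor and class, each from 1 library per group, and these differences were not tested. The log2 ratio in papain minus that in DPBS was −2.21 for Rora in CD4 T cells (62.9 against 46.7 CPM in DPBS, 62.4 against 214 in papain) and −1.47 for Rora in CD8 T cells. It was −1.56 for Bcl6 in CD4 T cells, which was higher in KO in DPBS and lower in KO in papain. It was 0.72 for Eomes in NK cells (332 against 413 CPM in DPBS, 429 against 324 in papain) and −1.31 for Tcf7 in gamma-delta T cells, from 18 to 26 cells per library.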

How the results depend on the processing

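No paired analysis was possible because each group is 1 library. Depth limits Zbtb16, Tbx21 and every factor in gamma-delta T cells, and 1 library per group leaves mice, batch and group inseparable. Under the alternatives 89 values of main results stayed within their counting interval (counts within 1.5 times the main count, levels within 1 SD), 28 moved further, and 1 value past the fold turned direction. For the other values these numbers were 767, 160 and 3, and a value under the fold that crossed 0 is not among those that turned. In CD4 T cells Gata3 for KO against WT in papain (−1.18) became 0.10 when clustered without integration (3696 cells), −1.23 once the Cd4 cells of its unnamed clusters were added (4433 cells), −0.92 without cells with a Mki67 or Top2a UMI, −0.58 without mixed clusters and −0.94 as a mean over cells. For papain against DPBS in WT (1.53) Gata3 became 1.38 with per-cell transcript gates (2192 cells), 0.0518 without integration, 1.28 without dividing cells, 0.97 without mixed clusters, 1.33 as a mean over cells and 1.39 with TMM. For papain against DPBS in KO (0.36) it became −0.0243 without integration, 0.0310 with doublets kept and −0.0151 without the Foxp3-led cluster.

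Tbx21 for papain against DPBS in WT (1.68) turned to −0.29 with transcript gates, −0.67 with the Cd4 cells of unnamed clusters (4496 cells) and −0.66 with those cells and no integration. The cause was not tested. The number of factors past 1.5-fold became 0 without integration and 2 without mixed clusters for KO against WT in papain (main 4), and 2 without integration for papain against DPBS in WT (main 5). For KO against WT in DPBS (main 1) it became 2 with transcript gates, without integration, with Cd4 cells of unnamed clusters (with or without integration), as a mean over cells or with genes of at least 5 UMIs, and 0 at 2-fold. For papain against DPBS in KO (main 0) it became 1 with transcript gates and 2 with the Cd4 cells of unnamed clusters, integrated or not. Without dividing cells the Gata3 ratio at equal cluster weights (−0.71) became −0.54. With cells thinned to 1000 UMIs the log2 odds ratio of Gata3 and Rora in Papain WT (2.62) became 2.08. Of the 24 closest genes 4 were shared with transcript gates. With doublets kept no gamma-delta T class could be named, and the leading class of Lef1 became CD4 T cells in most alternatives. Added after seeing the data were the settings with Cd4 cells of unnamed clusters, without the Foxp3-led cluster and without ILC2 that hold a Cd3e UMI, the shares of cells thinned to 2000 UMIs or not thinned in place of levels, and the settings on equal weights and closest genes.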
